A study of Mus musculus with 6 samples.

Results

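The 10 genes described here are Trem2, Tyrobp, Gpnmb, Apoe, Lpl, Cd36, Fabp5, Lgals3, Cd9 and Spp1, a set that marks lipid-associated macrophages. They were listed by symbol, and all 10 had a row among the 23508 genes of the count table. All 10 also passed the filter on low counts, which left 16755 genes. The list was selected on this comparison, that is, with earlier with-peak against before-peak results of these same tumors known, so those differences are given here as a description and support nothing by themselves. RNA was sequenced from 6 tumors of 4T1, a mouse mammary carcinoma line that models the triple-negative subtype. Per the labels, 3 tumors were collected on the day of the first peak of recorded neural activity (with peak) and 3 before it (before peak). All 6 are 4T1 tumors from a single cell line, and the labels give no host strain, sex, age, treatment or day of collection, so tumor age and the peak cannot be told apart.

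Lipid-associated macrophages are tissue macrophages that take up lipid from dying cells, fat or myelin. TREM2, a surface receptor that binds lipids and lipoproteins, signals through the adaptor TYROBP and is needed in mice for the full program in fat and brain. The program combines lipid uptake (CD36, LPL), intracellular lipid binding (FABP5), lipid export (APOE) and lysosomal and secreted proteins (GPNMB, galectin-3, osteopontin). Several of these genes are not restricted to macrophages: adipocytes, muscle and endothelium use Lpl and Cd36, and carcinoma cells can express Spp1, Lgals3, Cd9 and Fabp5. In a bulk tumor, fewer cells of a type and less RNA per cell cannot be told apart.

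Total counts ran from 10591067 to 14549357 per library. Carcinoma markers were high in every tumor, with Krt8 at 1059 to 1716 CPM with peak and 1397 to 1676 CPM before peak, where CPM is the count scaled to library size by TMM factors. Of 18 general macrophage markers, none of which is one of the 10 genes, all 18 were measured, and their summed level was 4689 to 6450 CPM with peak and 2501 to 3989 CPM before peak. With-peak replicates 2 and 3 were high in skeletal muscle transcripts, with 14 markers summing to 1508 and 1496 CPM, against 63.7 to 290 CPM in the other 4 tumors. The same libraries were high in red cell and platelet transcripts: the 8 tested of 10 such markers summed to 337, 1539 and 2208 CPM in with-peak replicates 1, 2 and 3 and 268, 164 and 309 CPM in before-peak replicates 1, 2 and 3, and all 8 had log2 fold changes above 0 (median 2.56). Before-peak replicate 3 was high in B and T cell transcripts, at 511 CPM against 25.4 to 108 CPM in the other 5. Of 6 mitochondrially encoded genes, the groups did not overlap for 3. Of these, 2 were higher and 1 lower with peak, against 8.13% and 7.38% of all genes tested.

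Promoter sequences are shown for the 2 genes with the largest differences, Trem2 and Gpnmb, and the 2 most abundant, Apoe and Spp1. RefSeq promoter windows on GRCm38.p6 matched 7 of the 10 genes (all but Tyrobp, Lpl and Fabp5); those of Cd36 and Lgals3 belong to starts 52905 and 6109 bases from the GENCODE start of the gene. Each run is the 250 bases before the annotated start, 5′ to 3′ on the gene's strand: chr17:48346151-48346400 (plus) for Trem2, chr6:49036268-49036517 (plus) for Gpnmb, chr7:19699189-19699438 (minus) for Apoe and chr5:104434861-104435110 (plus) for Spp1. Capitals mark matches to MITF, PU.1, AP-1 and TATA motifs.
Trem2 promoter: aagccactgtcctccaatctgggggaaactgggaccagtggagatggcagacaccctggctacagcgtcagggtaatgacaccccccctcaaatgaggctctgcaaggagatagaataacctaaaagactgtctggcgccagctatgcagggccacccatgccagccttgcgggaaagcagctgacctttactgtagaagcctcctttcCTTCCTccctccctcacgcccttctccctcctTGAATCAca
Gpnmb promoter: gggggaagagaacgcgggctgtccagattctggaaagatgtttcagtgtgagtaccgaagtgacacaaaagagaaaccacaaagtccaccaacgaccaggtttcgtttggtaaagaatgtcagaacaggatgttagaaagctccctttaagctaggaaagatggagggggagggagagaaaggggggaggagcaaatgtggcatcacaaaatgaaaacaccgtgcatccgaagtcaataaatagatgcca
Apoe promoter: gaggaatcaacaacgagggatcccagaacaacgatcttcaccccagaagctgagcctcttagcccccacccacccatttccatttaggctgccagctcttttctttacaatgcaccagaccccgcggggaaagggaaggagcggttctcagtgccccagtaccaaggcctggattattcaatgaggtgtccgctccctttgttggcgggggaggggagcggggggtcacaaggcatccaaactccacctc
Spp1 promoter: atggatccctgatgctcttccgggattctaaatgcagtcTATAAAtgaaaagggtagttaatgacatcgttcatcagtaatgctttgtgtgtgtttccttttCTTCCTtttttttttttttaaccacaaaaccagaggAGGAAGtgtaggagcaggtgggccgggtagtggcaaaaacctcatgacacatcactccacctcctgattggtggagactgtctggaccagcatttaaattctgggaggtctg

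The motifs reported, searched on both strands, were TCACGTG or TCATGTG (the boxes of MITF and TFE factors), AGGAAG (PU.1, the master factor of macrophages), TGANTCA (AP-1) and TATAAA. Trem2 held 1 AGGAAG match, on the minus strand 41 to 36 bases before the start, and 1 TGANTCA match 9 to 3 bases before it. Spp1 held 2 AGGAAG matches and 1 TATAAA match, 211 to 206 bases before the start. The Gpnmb and Apoe windows held none of these motifs, and no match overlapped another. AGGAAG was in 3 of the 7 windows (Trem2, Spp1 and Cd9), against 29.5% of all 32851 promoter windows of that length. The MITF box was in 0 of 7, against 6.28% of all, TGANTCA in 1 against 6.75%, and TATAAA in 1 against 12.4%. These are letter matches, which say nothing of whether a factor binds.

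Trem2 (ENSMUSG00000023992, chromosome 17, 48346401 to 48354147, GRCm38) and its adaptor were both higher in every with-peak tumor. Trem2 was at 50.1, 89.7 and 65.9 CPM with peak, against 40.4, 23.1 and 28.7 CPM before peak, where 3 values of a group are those of replicates 1, 2 and 3. The groups did not overlap, but with-peak replicate 1 lay closest to before-peak replicate 1. The means were 68.6 ± 19.9 CPM with peak and 30.7 ± 8.81 CPM before peak (SD, n = 3 each), a 2.23-fold difference or a log2 fold change of 1.16 (SE 0.27). Tyrobp (chromosome 7, 30413760 to 30417585), which carries the signaling motif that TREM2 itself lacks, was at 155, 183 and 139 CPM with peak and 110, 78.5 and 98.3 CPM before peak. These levels also separated, with a log2 fold change of 0.73 (SE 0.15). The ratio of Trem2 to Tyrobp, both per kilobase of transcript, was 0.168, 0.255 and 0.247 in with-peak replicates 1 to 3 and 0.190, 0.152 and 0.152 in before-peak replicates 1 to 3, so with-peak replicate 1 fell within the before-peak range.

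Gpnmb (chromosome 6, 49036546 to 49070929), a transmembrane glycoprotein of lysosomes and phagosomes, had the largest fold change and the lowest level of the 10 genes. It was at 6.66, 18.3 and 10.6 CPM with peak and 1.28, 3.21 and 1.25 CPM before peak. All with-peak tumors were higher, and before-peak replicate 2 was the highest of its group. The log2 fold change was 2.62 (SE 0.50), or 6.13-fold. It rests on few reads: 95, 233 and 109 counts in with-peak replicates 1, 2 and 3 and 16, 41 and 15 counts in before-peak replicates 1, 2 and 3.

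Among the genes that carry or take up lipid, Apoe separated the groups while Lpl, Cd36 and Fabp5 did not. Apoe (chromosome 7, 19696109 to 19699188), which exports cholesterol and phospholipid from macrophages, was at 2231, 3906 and 2731 CPM with peak and 2129, 1321 and 1585 CPM before peak. Only a small gap lay between with-peak replicate 1 and before-peak replicate 1. Its log2 fold change was 0.82 (SE 0.25).

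Lpl (chromosome 8, 68880491 to 68907448), the lipase that frees fatty acids from triglyceride-rich lipoproteins, was at 94.8, 294 and 220 CPM with peak and 144, 105 and 212 CPM before peak. With-peak tumors were both the lowest (replicate 1) and the highest (replicate 2) of all 6. The log2 fold change was 0.40 (SE 0.47), within its error of 0. Without with-peak replicates 2 and 3, the muscle-rich libraries, it was -0.70. That fit leaves replicate 1, the lowest in Lpl, as the only with-peak tumor.

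Cd36 (chromosome 5, 17781690 to 17888801), a scavenger receptor and fatty acid transporter, was at 95.1, 163 and 98.6 CPM with peak and 67.8, 46.1 and 111 CPM before peak. Before-peak replicate 3 lay above 2 of the with-peak tumors. The log2 fold change was 0.67 (SE 0.37), with 0.37 without with-peak replicate 2 and 1.06 without before-peak replicate 3. Fabp5 (chromosome 3, 10012548 to 10016607), a cytosolic fatty acid chaperone, was at 45.9, 65.0 and 54.7 CPM with peak and 50.4, 52.2 and 62.2 CPM before peak. The before-peak range lay inside the with-peak range, with a log2 fold change of 0.0069 (SE 0.15). Fabp5 has processed pseudogenes, and how reads shared with them were counted is not given in the sources used here.

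Adipocyte transcripts, like Lpl and Cd36, were highest in with-peak replicate 2. The 10 adipocyte markers, all measured and none at 0, summed to 366, 1619 and 854 CPM in with-peak replicates 1, 2 and 3 and 892, 478 and 1200 CPM in before-peak replicates 1, 2 and 3. With-peak replicate 2 was highest for Lpl, Cd36 and this sum, and before-peak replicate 3 was the highest before-peak tumor for all of them. Muscle markers were also highest in with-peak replicate 2, but lowest, at 63.7 CPM, in before-peak replicate 3. The 10 endothelial markers summed to 459, 688 and 299.9 CPM with peak and 336, 422 and 453 CPM before peak, again highest in with-peak replicate 2. The part of fat, muscle and endothelium in the levels of Lpl and Cd36 was not tested.

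**Figure D1:**
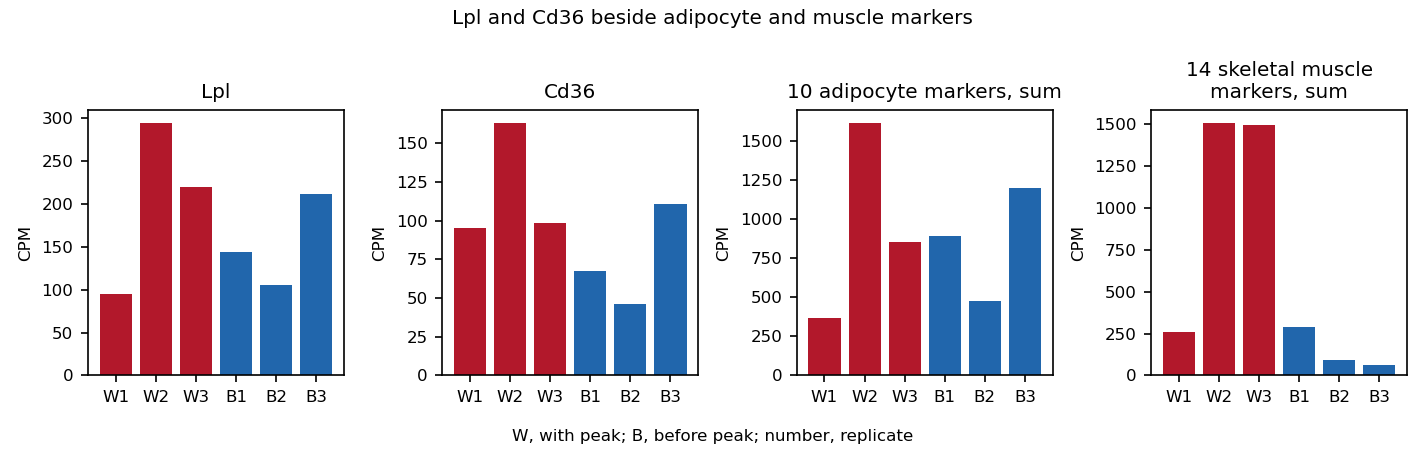
Levels in CPM of Lpl, Cd36, the summed 10 adipocyte markers and the summed 14 skeletal muscle markers in each tumor (bars; with-peak replicates 1 to 3, then before-peak replicates 1 to 3). With-peak replicate 2 has the tallest bar in every panel, and with-peak replicate 1 the shortest for Lpl and for the adipocyte sum.

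Of the secreted and membrane genes, Lgals3 separated the groups while Cd9 and Spp1 did not. Lgals3 (chromosome 14, 47367751 to 47386160), which encodes galectin-3, a lectin recruited to damaged lysosomes, was at 401, 357 and 423 CPM with peak and 293, 338 and 255 CPM before peak. It was higher in every with-peak tumor by a small margin, with a log2 fold change of 0.41 (SE 0.13).

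Cd9 (chromosome 6, 125460266 to 125494791), a tetraspanin, was at 402, 309 and 352 CPM with peak and 447, 377 and 328 CPM before peak, and the groups overlapped, with a log2 fold change of -0.11 (SE 0.15). Spp1 (chromosome 5, 104435118 to 104441050), which encodes osteopontin, a secreted integrin ligand, was at 1871, 1644 and 1763 CPM with peak and 2563, 1935 and 1649 CPM before peak. Its groups overlapped too, and before-peak replicate 1 was the highest of all tumors. The log2 fold change was -0.22 (SE 0.16), and without before-peak replicate 1 it was -0.03. The libraries carry no strand, and Cd9 shares 218 exonic bases with the antisense gene Gm26728, which had 7471 counts over all tumors. Spp1 shares 309 exonic bases with Gm42793, which had 265 counts on the same strand.

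**Figure D2:**
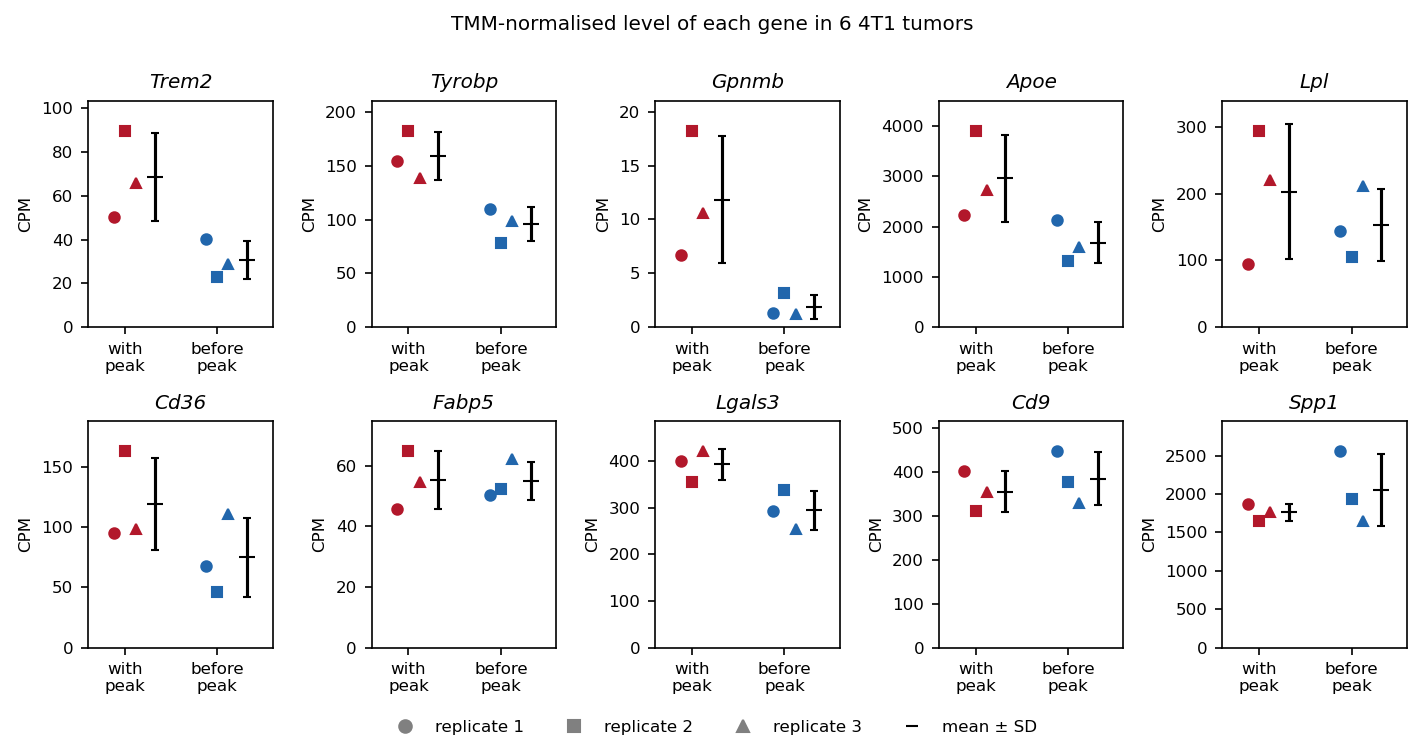
TMM-normalised CPM of each of the 10 genes in the 6 tumors (symbols give the replicate; bars, mean ± SD, n = 3; linear axes from 0). With-peak tumors, on the left of each panel, lie above all before-peak tumors for Trem2, Tyrobp, Gpnmb, Apoe and Lgals3 and overlap them for Lpl, Cd36, Fabp5, Cd9 and Spp1.

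The 10 genes differed in direction and size. Their log2 fold changes ran from -0.22 for Spp1 to 2.62 for Gpnmb, with a median of 0.54 against -0.02 over all genes tested, and 8 of 10 were positive, against 47.7% of all genes. With scaling to library size alone, 7 of 10 were positive, Fabp5 being at -0.05, against 39.5% of all genes. For 5 genes every with-peak tumor was above every before-peak tumor, and for 0 every one was below; over all genes these shares were 8.13% and 7.38%. None of the 10 passed the edgeR quasi-likelihood test at an adjusted p under 0.05 over all genes, where 0.0% of genes passed. At an unadjusted p under 0.05, 5 were higher and 0 lower, against 6.12% and 3.38% of all genes (9.5% in either direction), and these were the 5 that separated. With library size alone the counts of the 10 were the same, against 4.58% of all genes higher and 6.09% lower. DESeq2 called 4 higher (Trem2, Tyrobp, Gpnmb and Apoe) and 0 lower, against 1.48% and 0.146% of genes with an adjusted p. Because the list was selected on this comparison, nothing is read from these counts. When each tumor was left out in turn, the log2 fold change stayed at 0.91 to 1.40 for Trem2, 2.16 to 3.21 for Gpnmb, 0.61 to 0.84 for Tyrobp, 0.56 to 1.02 for Apoe and 0.32 to 0.52 for Lgals3. It ran from 0.03 to 0.75 for Lpl, the lowest without with-peak replicate 2. Without with-peak replicates 2 and 3 together, the libraries rich in muscle and red cell transcripts, with-peak replicate 1 was the only with-peak tumor left. The log2 fold change was then 0.70 for Trem2, 1.79 for Gpnmb, 0.69 for Tyrobp, 0.40 for Apoe, 0.44 for Lgals3 and 0.34 for Cd36.

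**Figure D3:**
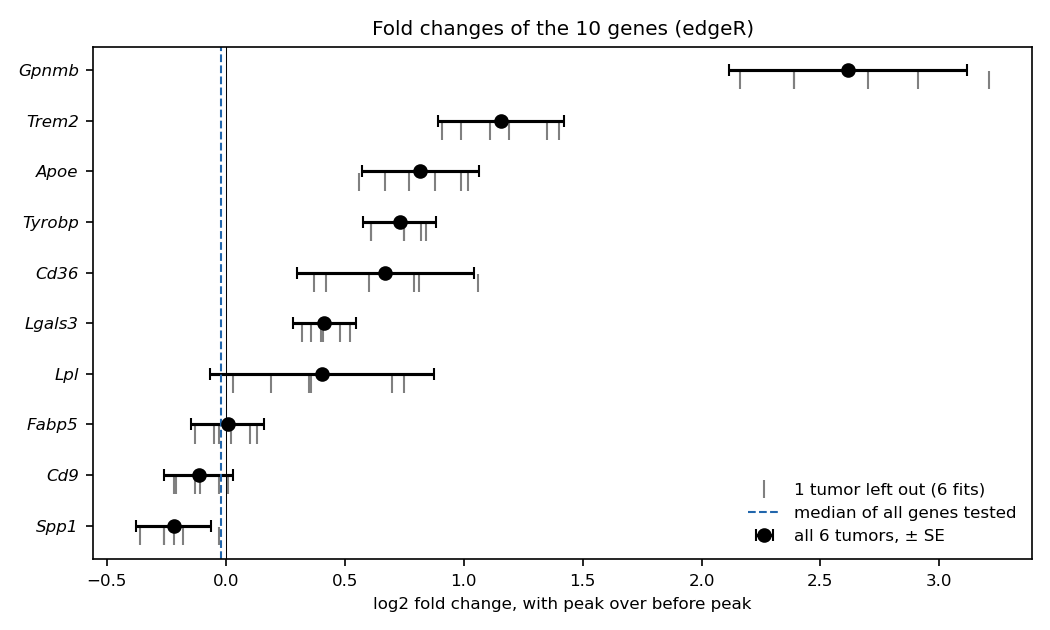
Log2 fold change (with peak over before peak) of the 10 genes from edgeR with all 6 tumors (points, bars ± SE) and with each tumor left out (grey ticks); the dashed line is the median of all genes tested, -0.02. Gpnmb stands at 2.62 and Trem2 at 1.16, while Fabp5, Cd9 and Spp1 lie near 0.

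The order of the levels, in CPM per kilobase of the principal transcript, put Apoe and Spp1 far above the other genes in both groups. With peak, Apoe was at 2100 ± 611 and Spp1 at 1170 ± 75.5 CPM per kilobase (SD, n = 3), and their ranges did not overlap. Before peak, Spp1 was at 1360 ± 310 and Apoe at 1190 ± 293, and their ranges overlapped. Within a tumor, the ratio of Apoe to Spp1 per kilobase was 1.28, 2.54 and 1.66 in with-peak replicates 1, 2 and 3 and 0.889, 0.731 and 1.03 in before-peak replicates 1, 2 and 3, higher in every with-peak tumor. A middle tier of Cd9, Tyrobp and Lgals3 stood at 289, 281 and 277 CPM per kilobase with peak, with overlapping ranges, and at 313, 169 and 208 before peak. Trem2, Fabp5, Lpl and Cd36 formed a lower tier of 35.0 to 63.0 with peak and 22.0 to 55.7 before peak, in which each neighbour overlapped the next. Gpnmb was lowest, at 3.20 ± 1.59 with peak and 0.517 ± 0.303 before peak. Of the summed CPM per kilobase of the 10 genes, Apoe made up 47.9% with peak and 35.0% before peak on average, and Spp1 27.5% with peak and 40.0% before peak.

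Tumors within a group also differed in the set. With-peak replicate 2 was the highest of its group for 7 of the 10 genes, and with-peak replicate 1 was the lowest for 6. Lpl varied most within the with-peak group, by 3.10-fold between its highest and lowest tumor, and Gpnmb by 2.74-fold, while Spp1 varied by 1.14-fold. Before peak the widest ranges were those of Gpnmb (2.57-fold) and Cd36 (2.40-fold). With-peak replicate 2 was also the tumor with the highest summed macrophage markers, 6450 CPM, and before-peak replicate 2 the lowest, 2501 CPM.

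Most general macrophage markers were higher with peak. Of the 18, 17 had log2 fold changes above 0, the median was 0.64, and for 9 the groups did not overlap, all higher, against 8.13% of all genes. None passed edgeR over all genes. At an unadjusted p under 0.05, 14 were higher, against 6.12% of all genes, and DESeq2 called 6 higher, against 1.48%. Cd68, a lysosomal glycoprotein of macrophages, was at 90.9 ± 20.1 CPM with peak and 52.6 ± 8.42 CPM before peak (SD, n = 3 each), and Adgre1, which encodes F4/80, at 77.3 ± 11.3 CPM with peak and 45.0 ± 9.93 CPM before peak. Positive fold changes were not particular to macrophage markers, where 47.7% of all genes were positive. The cell type lists with the largest medians were skeletal muscle (14 of 14 positive, median 2.89) and red cells and platelets (8 of 8, median 2.56). Positive fold changes were also found for 7 of 8 neutrophil markers (median 0.54), 9 of 10 fibroblast markers (median 0.51) and 10 of 10 endothelial markers (median 0.31). They were found for 5 of 10 adipocyte, 2 of 8 dendritic cell, 2 of 10 carcinoma and 1 of 10 B and T cell markers.

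Relative to these markers, Gpnmb, Trem2 and Tyrobp were higher in with-peak tumors, Spp1, Cd9 and Fabp5 were lower, and the other 4 genes overlapped between the groups. The value given here is a gene's log2 CPM minus the mean log2 CPM of the 18 markers in the same tumor, with no test. The marker mean itself was 0.58 higher with peak, so a gene at the same CPM in both groups comes out 0.58 lower on this scale. That mean did not overlap between the groups either, at 6.98, 7.36 and 6.90 with peak and 6.69, 6.24 and 6.55 before peak. How many of all genes separate on this scale was not determined, so nothing is read from separation on it. Gpnmb was at -4.21, -3.15 and -3.47 in with-peak replicates 1 to 3 and -6.16, -4.49 and -6.05 in before-peak replicates 1 to 3, a difference of means of 1.96. Trem2 was at -1.33, -0.87 and -0.85 with peak and -1.35, -1.70 and -1.70 before peak, a difference of 0.57. On this scale with-peak replicate 1 and before-peak replicate 1 were nearly level for Trem2. Tyrobp had the smallest spread of the 10 within each group, at 0.29, 0.16 and 0.22 with peak and 0.09, 0.06 and 0.07 before peak, a difference of 0.15 (SD 0.07 with peak and 0.02 before peak, n = 3 each).

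Spp1, the osteopontin gene, led the genes that were lower relative to the markers. It was at 3.89, 3.33 and 3.89 with peak and 4.63, 4.68 and 4.14 before peak on this scale, a difference of -0.78. The differences were -0.69 for Cd9 and -0.58 for Fabp5, and these groups did not overlap either. For all 3 genes the CPM itself overlapped between the groups, and the Fabp5 difference equals that of the marker mean with its sign turned. Apoe (0.22), Cd36 (0.13), Lgals3 (-0.16) and Lpl (-0.27) overlapped between the groups. Carcinoma cells are another possible source of Spp1, Cd9, Fabp5 and also Lgals3, whose CPM was higher in every with-peak tumor. Carcinoma markers had a median log2 fold change of -0.23 over 10 genes. They summed to 3113 to 4594 CPM with peak and 3761 to 4914 CPM before peak. Of the 10, 2 were positive, and with library size alone 0 were, against 47.7% and 39.5% of all genes. Krt5, Cdh1 and Krt14 were lower in every with-peak tumor, 3 of the 10 markers, against 7.38% of all genes. At an edgeR unadjusted p under 0.05, 3 were lower and 0 higher, against 3.38% and 6.12%, and DESeq2 called 1 lower, against 0.146%. The part of carcinoma cells in these differences was not tested.

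**Figure D4:**
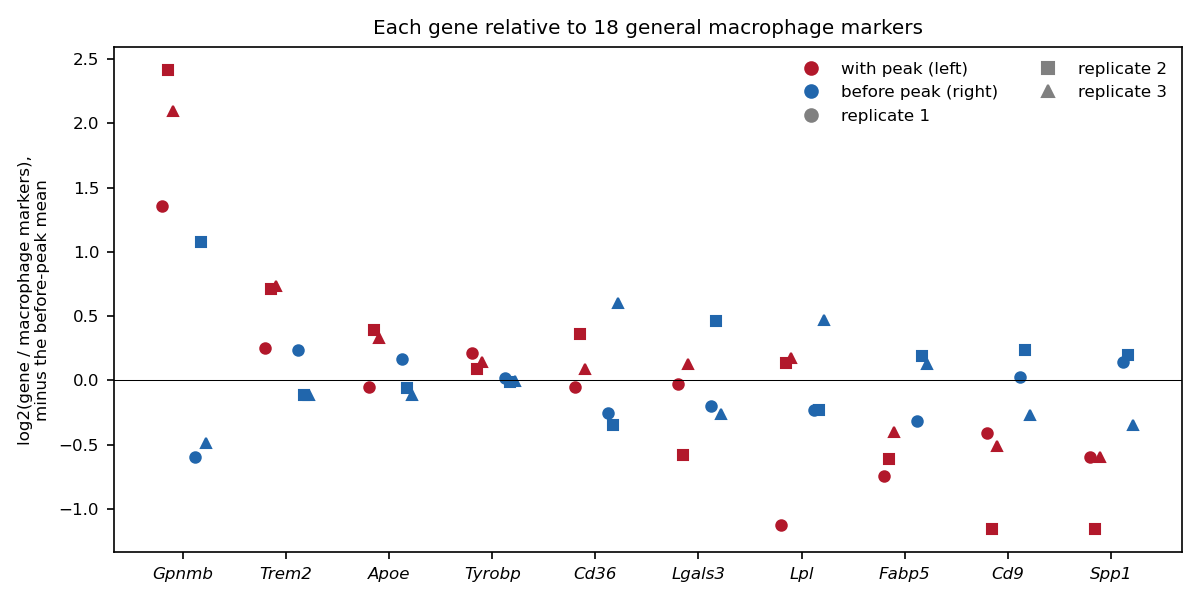
Log2 CPM of each gene minus the mean log2 CPM of 18 general macrophage markers in the same tumor, shifted so that the before-peak mean is 0 (red, with peak; blue, before peak; symbols, replicates). Gpnmb and Trem2 lie above 0 in all with-peak tumors, Tyrobp has the smallest spread, and Fabp5, Cd9 and Spp1 lie below 0 in all with-peak tumors.

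Other genes of the lipid-associated or disease-associated macrophage program were mostly higher with peak. Of 25 listed and tested, 20 had log2 fold changes above 0, against 47.7% of all genes. The median was 0.38, below the 0.64 of the general macrophage markers. For 10 the groups did not overlap, all higher, against 8.13% of all genes. None passed edgeR over all genes. At an unadjusted p under 0.05, 11 were higher and 1 lower, against 6.12% and 3.38% of all genes, and DESeq2 called 5 higher, against 1.48%. Lipa, the lysosomal acid lipase, was at 78.8 ± 8.25 CPM with peak and 41.3 ± 2.54 CPM before peak (SD, n = 3 each; edgeR adjusted p = 0.0828). Plin2, which coats lipid droplets, was at 283 ± 45.0 CPM with peak and 169 ± 22.1 CPM before peak (edgeR adjusted p = 0.157), and Ccl6, a myeloid chemokine, at 754 ± 235 CPM with peak and 316 ± 67.3 CPM before peak (edgeR adjusted p = 0.191).

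For the TREM2 signaling list the counts of separated and called genes were near those of all genes. This list also holds the adaptor gene Hcst and the genes of 2 proteases that cut TREM2, Adam10 and Adam17. Of 15, 9 were positive and 6 negative with a median of 0.09, where 47.7% of all genes were positive. The groups separated for 1 upward and 1 downward, against 8.13% and 7.38% of all genes. None passed edgeR over all genes. At an edgeR unadjusted p under 0.05, 0 were higher and 1 lower, against 6.12% and 3.38% of all genes, and no gene of this list passed DESeq2. The 3 with the smallest p were Plcg2, the phospholipase of this pathway (log2 fold change -0.54, SE 0.19), Bcl10 (0.20, SE 0.11) and Malt1 (-0.31, SE 0.19). Syk, the kinase that docks on TYROBP, was at 61.2, 78.4 and 67.3 CPM with peak and 42.1, 35.6 and 84.6 CPM before peak, with before-peak replicate 3, the tumor rich in B and T cell transcripts, the highest.

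Among genes that store and export lipid, the exporters Abca1 and Abcg1 were higher in every with-peak tumor. In the storage and efflux list 18 of 19 were tested and 13 were positive, with a median of 0.33, where 47.7% of all genes were positive. At an edgeR unadjusted p under 0.05, 6 were higher and 0 lower, against 6.12% and 3.38% of all genes. DESeq2 called 6 higher and 0 lower, against 1.48% and 0.146%, and edgeR called 0. Abca1, which loads cholesterol onto lipid-poor apolipoproteins, was at 169 ± 20.4 CPM with peak and 105 ± 28.6 CPM before peak. Abcg1, which passes it to mature lipoprotein, was at 46.6 ± 7.09 CPM with peak and 25.9 ± 7.81 CPM before peak. In the uptake list 16 of 17 were tested and 13 were positive, against 47.7% of all genes, with a median of 0.21. With library size alone 11 were positive, against 39.5% of all genes. EdgeR called 0, and DESeq2 called 1 higher and 1 lower, against 1.48% and 0.146% of all genes. At an edgeR unadjusted p under 0.05, 3 were higher and 1 lower, against 6.12% and 3.38%. Olr1, a receptor for oxidised lipoprotein, was at 3.26 ± 0.78 CPM with peak and 1.05 ± 0.15 CPM before peak (edgeR adjusted p = 0.285). Fabp3, a fatty acid binding protein of muscle, was at 0.91 CPM in with-peak replicate 1, 7.52 in replicate 2 and 5.63 in replicate 3, against 1.53, 0.23 and 0.25 CPM in before-peak replicates 1, 2 and 3, so its high values were in the muscle-rich tumors.

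Among 18 transcription factors known to act on such genes, 13 were positive, against 47.7% of all genes, with a median of 0.18. EdgeR called 0, and DESeq2 called 2 higher and 0 lower, against 1.48% and 0.146% of all genes. At an edgeR unadjusted p under 0.05, 3 were higher and 2 lower, against 6.12% and 3.38%. Mitf, which drives lysosomal genes in osteoclasts and pigment genes in melanocytes, was at 16.0, 21.9 and 18.9 CPM with peak and 8.67, 9.47 and 7.58 CPM before peak (edgeR adjusted p = 0.118). It was higher in every with-peak tumor. Srebf2, an activator of sterol synthesis, was lower in every with-peak tumor, at 125 ± 9.31 CPM with peak and 157 ± 11.0 CPM before peak (edgeR adjusted p = 0.399). Nr1h3, which encodes LXR alpha, and Pparg overlapped, with log2 fold changes of 0.30 (SE 0.32) and 0.11 (SE 0.37). Of 9 osteopontin receptor genes, 2 were positive and 7 negative, where 47.7% of all genes were positive, with a median of -0.09. For 2 of the 9, Itgb1 and Itgav, every with-peak tumor was lower, against 7.38% of all genes. EdgeR called 0, DESeq2 0, and 0 had an edgeR unadjusted p under 0.05. With library size alone 1 was positive, against 39.5% of all genes, and 8 were negative. Of these, 2 had an edgeR unadjusted p under 0.05, against 6.09% of all genes lower. Itgb1, Itgav and Cd44 had log2 fold changes of -0.19 (SE 0.10), -0.21 (SE 0.12) and -0.20 (SE 0.15).

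**Figure D5:**
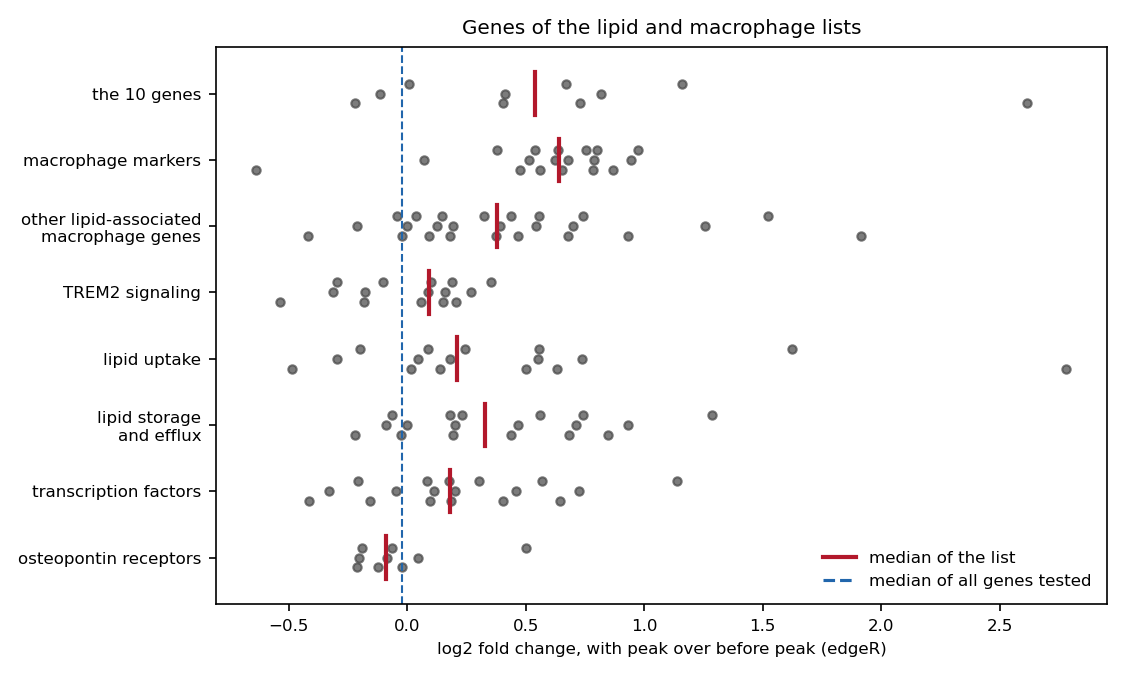
Log2 fold changes (with peak over before peak, edgeR) of the genes of each list (points), with the median of each list (red) and of all genes tested (dashed, -0.02). Of the lists drawn, the macrophage markers have the highest median, 0.64, the 10 genes have 0.54, and the osteopontin receptors have the lowest, -0.09. Marker lists of other cell types are not drawn.

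The genes with profiles most like 3 of the set were found by the root mean square difference of mean-centred log2 CPM over the 6 tumors, among 10782 genes of at least 10 CPM on average; this describes likeness and is not a test. For Trem2 they were Gm36161 (0.138), Tmem37 (0.152), Apoe (0.178), Lyz2 (0.182) and Mmp19 (0.185), so that 1 of the 5 was another gene of the set and Lyz2 is the macrophage lysozyme. For Gpnmb none was as close: Clec7a, the receptor for beta-glucans, at 0.585, was nearest, followed by Clec12a (0.624), F10 (0.640), Neb (0.664) and Cxcl11 (0.700). Neb is a skeletal muscle gene, high in with-peak replicates 2 and 3, where Gpnmb was highest too. For Spp1 the nearest were Arl4c (0.043), Tmem79 (0.059), Stim2 (0.062), Pik3r2 (0.062) and Fgfrl1 (0.065), genes with small differences and none of them a macrophage marker used here. Within the set the closest pair was Cd9 and Spp1, at 0.091, then Trem2 and Apoe, at 0.178, and the farthest was Gpnmb and Spp1, at 1.52. The profiles were centred but not scaled. Genes that vary little, such as Spp1, thus tend to lie closer to others than genes that vary much, such as Gpnmb.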

How the data were processed

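RNA of 3 with-peak and 3 before-peak 4T1 tumors was extracted with Trizol, selected with oligo(dT) and sequenced as unstranded read pairs, per the labels' protocols. The authors deposited a table of unnormalized whole-number counts for each gene. FastQC, STAR and mm10 were used, per the submitters' processing notes. For tool versions, the counting program and its gene models, the sources used here give nothing. Of 23508 genes, 23479 matched GENCODE M21 (GRCm38), the source of symbols and coordinates.

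Counts were analysed with edgeR 4.0.16 in R 4.3.3: filterByExpr (minimum count 10, minimum total 15), TMM scaling, and the robust quasi-likelihood test of the with-peak group over the before-peak group without covariates, adjusted by Benjamini-Hochberg over 16755 genes with a threshold of 0.05. The SE of a log2 fold change is the absolute log2 fold change over the root of F. Log2 CPM used a prior count of 2. Levels per kilobase used the APPRIS principal transcript. Longer motifs of PPAR, LXR and IRF factors were also searched in the promoter windows and are not reported here. The fits were tested on simulated data. Within a group, the counts of 2 tumors gave chi-squares of 17.1 to 28.9 per degree of freedom, beyond counting noise, so no library was a copy of another, and each counted as 1 sample; this does not show that they are independent. The labels do not say whether tumors came from separate animals, so p-values reflect only how these samples vary, which may be technical.

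The genes and lists were chosen with earlier results of these data known. All 10 genes were named. From each pathway list in which none passed, the 3 genes with the smallest p-values were to be named (some are not reported here), and Syk, Abca1, Nr1h3 and Pparg were added after their values were seen. Listed genes without a test had too few counts for the filter, apart from Apoc2, which was not analysed here. Alternatives were RLE factors, library size alone, no filter, 1 CPM in 3 libraries, DESeq2 1.42.0, limma-voom (limma 3.58.1), a replicate block and leaving out tumors.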

Additional observations from a re-analysis of the deposited data

How the results depend on the processing

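The median log2 fold change of the 10 genes, 0.54, was 0.37 without with-peak replicates 2 and 3, and 0.42 to 0.75 under the other alternatives tried. EdgeR called 0 genes higher and 0 lower over all genes; no filter on low counts gave 26 higher and 3 lower, DESeq2 242 higher and 24 lower with 4 of the 10 genes among them, 2 against 2 tumors (without before-peak and with-peak replicate 3) 4 higher, and leaving out 1 tumor 0 to 17 higher, namely 17 when before-peak replicate 2 was dropped, 13 for before-peak replicate 3, 9 for with-peak replicate 1 and 0 for any other tumor. The cause was not tested. None of the 10 passed in any fit but DESeq2.

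The sign changed for 3 genes: Fabp5 and Cd9, which were near 0, and Lpl, at 0.40 (SE 0.47) in the main fit. Fabp5 was at -0.05 with library size alone, -0.0037 by limma-voom and -0.13 to 0.13 without 1 tumor. Cd9 was at -0.22 to 0.0085 without 1 tumor. Without with-peak replicates 2 and 3, which leaves 1 with-peak tumor assumed to vary like the others, Lpl was at -0.70, Fabp5 at -0.27, Cd9 at 0.06, Gpnmb at 1.79, Trem2 at 0.70, Apoe at 0.40 and Cd36 at 0.34.

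The labels state no pairing, and tumors sharing a number had correlated deviations (across genes, from group means) of -0.063, -0.10 and 0.028. With the replicate block edgeR called 1 gene higher, none of the 10, and Fabp5 was at -0.00085. Depth limits Gpnmb, which had 15 to 41 counts before peak.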
